A study of Mus musculus with 7 samples.

Results

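The TRIM (tripartite motif) family was examined in cells sorted from irradiated B16 melanoma tumours. Members were taken by name: a protein-coding gene whose symbol is Trim followed by digits, with or without a single letter suffix. The rule found 68 of the 56953 genes in the count files. B16 is a mouse melanoma line, and the tumours of 3 mice that had radiotherapy (8 Gy) and AAV-iIL12 were compared with those of 4 mice that had the same dose and AAV-iLuc. AAV is adeno-associated virus, used here for gene delivery, and the vector names point to interleukin 12 and to luciferase. Tumours were taken 5 days after treatment, and live cells negative for CD45 and CD31 were sorted for poly(A) RNA sequencing. All mice were irradiated, so no library shows the unirradiated tumour. The titles of the AAV-iIL12 libraries also carry the mark WT, and strain, sex and age are not given in the sources used here.

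TRIM proteins share a RING finger, B-box and coiled-coil order, and most are ubiquitin ligases whose C-terminal domain picks the target. Many members with a PRY-SPRY domain at that end are interferon-stimulated and act against viruses or in the signalling from RNA and DNA sensors. Others sit on chromatin, on microtubules or at the sarcomere, so the family holds genes with little in common beyond their domains.

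The libraries held between 16356653 and 19080587 counts. Melanocyte markers (Dct, Pmel, Tyrp1, Tyr, Mlana, Sox10 and Mitf) summed to between 27845 and 28742 CPM (counts scaled to a common library total) with AAV-iIL12 and between 22839 and 25991 CPM with AAV-iLuc. Pmel, Mlana and Mitf rose, by 0.58, 0.38 and 0.25 on the log2 scale (edgeR adjusted p = 1.04e-05, 0.00472 and 0.00573). The other melanocyte markers did not pass. The 12 leukocyte markers summed to between 24.3 and 32.5 CPM with AAV-iIL12 and between 14.8 and 31.5 CPM with AAV-iLuc. AAV-iLuc replicate 1 was at the top of its group. Most of each sum was Cd68, at 18.6 ± 2.77 CPM with AAV-iIL12 and 15.3 ± 1.49 CPM with AAV-iLuc, so it says little of the other markers. None of the 5 leukocyte markers that could be tested passed. The rest had too few counts to test. Among these, Cd8a had 16 counts with AAV-iIL12 (0.366, 0.217 and 0.330 CPM) and none with AAV-iLuc. The other untested leukocyte markers overlapped between the groups. Ptprc, the gene of CD45, stood at 1.91 ± 0.76 CPM with AAV-iIL12 and 0.77 ± 1.13 CPM with AAV-iLuc (SD, n = 3 and 4). By library it had 2.25, 2.44 and 1.04 CPM with AAV-iIL12, against 2.44, 0.164, 0.0596 and 0.412 CPM with AAV-iLuc. Of the 7 endothelial markers, Cdh5, Cldn5 and Emcn had no count in any library, and the sum of all 7, nearly all of it Vwf, lay between 15.2 and 26.7 CPM with AAV-iIL12 and between 19.4 and 24.9 CPM with AAV-iLuc. The 8 fibroblast markers summed to between 58.3 and 158 CPM with AAV-iIL12 and between 84.3 and 290 CPM with AAV-iLuc. All 8 were tested and none passed. Throughout, values are CPM scaled by TMM, means are ± SD over the 3 AAV-iIL12 or the 4 AAV-iLuc libraries, and each log2 fold change is AAV-iIL12 over AAV-iLuc ± SE.

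Most tested TRIM genes linked to interferon and virus defence rose with AAV-iIL12, and most of the other tested TRIM genes differed by less than 2-fold. Outside the antiviral group Trim69, Trim17 and Trim66 rose by more than 2-fold, and Trim69 had the largest fold of all members. Trim69 was listed with the signalling members, though human TRIM69 is an interferon-stimulated gene. Of the 68 members, 44 passed the filter on low counts, and 18 of these rose, 8 fell and 18 did not pass the test (quasi-likelihood test of edgeR, with p adjusted by Benjamini-Hochberg over all genes and a threshold of 0.05). In either direction 26 were called, or 59.1%, where 47.2% of all 13990 tested genes were. The rises made up 40.9% of the tested members, where 23.5% of all tested genes rose. The falls made up 18.2%, where 23.7% of all tested genes fell. A rise of at least 4-fold was met by 8 members, or 18.2%, and by 2.38% of all tested genes. The median log2 fold change was 0.20 over the tested members and -0.01 over all tested genes. The AAV-iIL12 and AAV-iLuc libraries did not overlap for 25 of the 44, or 56.8%, near the 52.5% of all tested genes for which they did not overlap.

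Over all genes the split between rises and falls depended on the scaling. It was 3292 higher and 3316 lower here, 2506 and 4460 when only library size was scaled, and 2650 and 4225 by the upper quartile. Among TRIM genes the split was 15 higher and 10 lower by library size and 16 higher and 10 lower by the upper quartile. Trim5, Trim17, Trim66 and Trim69 passed the low-count filter through their AAV-iIL12 libraries alone, so these members could hardly be tested without a rise. Among the 40 others, 14 rose, 8 fell and 6 rose at least 4-fold. Of these, Trim67 passed the filter through its AAV-iLuc libraries alone. In sorted bulk RNA, fewer cells of a type and less RNA per cell cannot be told apart.

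**Figure D1:**
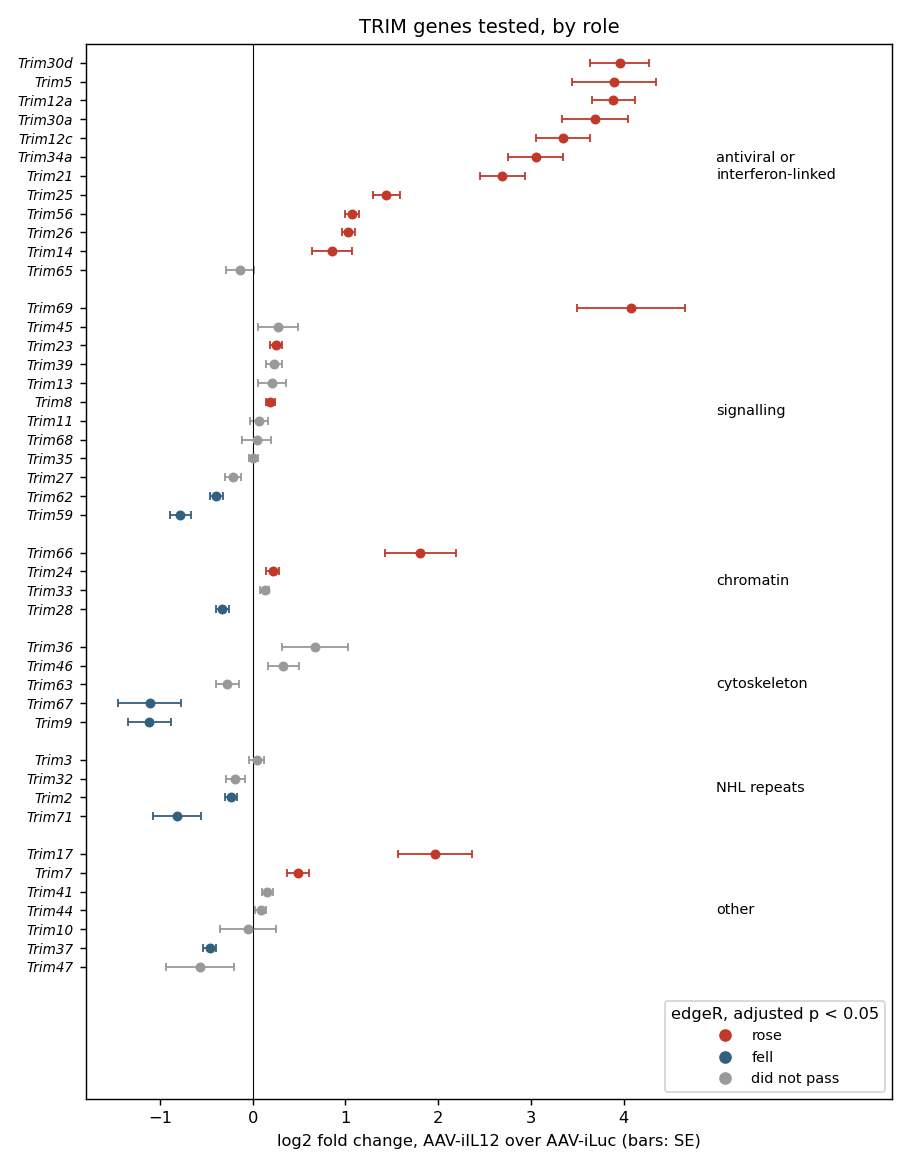
Log2 fold change (AAV-iIL12 over AAV-iLuc, x axis) of the 44 tested TRIM genes, listed by role, with bars for the SE and colours for the edgeR call. In the antiviral group 11 of 12 members rose, where 23.5% of all tested genes did. Trim5 among them passed the low-count filter through AAV-iIL12 alone. In the other groups most points lie near 0, apart from Trim69, Trim66 and Trim17 above it and Trim9 and Trim67 below it.

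Of the 18 rises, 11 were in the antiviral and interferon-linked group. Of its 12 tested members 11 rose and none fell, where 23.5% of all tested genes rose and 23.7% fell. Trim5 is counted among the 11, though it passed the low-count filter through its AAV-iIL12 libraries alone. Another 6 of its 18 members had too few counts to test. The median log2 fold change of the tested ones was 2.87, with a range from -0.14 to 3.96. These members are listed together because of what is known of their roles, and the lists were made with earlier results of these data known. Of these 11 rises 7 lie on chromosome 7, most of them where TRIM genes stand side by side. Trim66 of the chromatin group also rose on that chromosome.

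Trim30a (ENSMUSG00000030921, chromosome 7, 104058232 to 104114400, GRCm39) is an interferon-induced mouse gene whose protein restrains Toll-like receptor signalling. It had the highest level of the chromosome 7 genes that rose. It stood at 174, 118 and 132 CPM in the AAV-iIL12 libraries, against 19.9, 11.5, 8.10 and 4.02 CPM in the AAV-iLuc libraries. The lowest AAV-iIL12 library lay far above the highest AAV-iLuc library. The log2 fold change was 3.69 ± 0.35 (adjusted p = 2.61e-05), a 12.9-fold difference. Its neighbour Trim30d (chromosome 7, 104119221 to 104157056) had 36.1, 25.5 and 27.5 CPM with AAV-iIL12, against 3.38, 2.08, 1.55 and 0.567 CPM with AAV-iLuc (log2 fold change 3.96 ± 0.32, adjusted p = 9.48e-06). In the same cluster Trim30b had 3 counts over the AAV-iIL12 libraries and 3 over the AAV-iLuc libraries, and Trim30c had none in any library. Of the distinct 50-base words in Trim30a transcripts, 5.98% also occur in transcripts of Trim30d, so only a small part of their reads could have been lost or exchanged between them.

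Trim5, Trim12a and Trim12c are the mouse relatives of primate TRIM5, which recognises the capsid of incoming retroviruses. Trim12a (chromosome 7, 103949101 to 103964673) had 64.6, 48.4 and 51.7 CPM with AAV-iIL12, against 5.88, 3.45, 3.40 and 2.01 CPM with AAV-iLuc (log2 fold change 3.89 ± 0.23, adjusted p = 2.40e-06). For Trim12c (chromosome 7, 103987961 to 104002569) the values were 54.0, 51.6 and 54.6 CPM with AAV-iIL12 and 9.05, 5.98, 3.63 and 2.22 CPM with AAV-iLuc. Its 3 AAV-iIL12 libraries were nearly level, whereas its AAV-iLuc libraries ranged widely, and the log2 fold change was 3.35 ± 0.30 (adjusted p = 1.62e-05). Trim5 (chromosome 7, 103912593 to 103937301) was the scarcest of these relatives, with 5.97, 4.29 and 4.07 CPM with AAV-iIL12 and 0.416, 0.548, 0.298 and 0 CPM with AAV-iLuc (log2 fold change 3.90 ± 0.46, adjusted p = 8.67e-05). Of the 50-base words of Trim5, 36.3% occur in transcripts of another gene, as do 33.0% of those of Trim12c and 10.4% of those of Trim12a. Reads that fit several genes may therefore be missing from these counts, and the levels of the relatives among themselves are uncertain.

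Trim34a, a relative of the interferon-responsive human TRIM34, also rose. Trim34a (chromosome 7, 103893664 to 103911441) had 33.9, 26.0 and 25.1 CPM with AAV-iIL12, against 5.56, 4.28, 1.97 and 1.75 CPM with AAV-iLuc (log2 fold change 3.05 ± 0.30, adjusted p = 2.81e-05). Its copy Trim34b had 5 counts over the AAV-iIL12 libraries and none over the AAV-iLuc libraries, too few to test. Trim34b shares 56.8% of its 50-base words with Trim34a, and Trim34a 39.8% with Trim34b, so reads of the copy can be lost.

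Trim21 encodes the cytosolic antibody receptor that sends antibody-coated viruses to the proteasome. It lies apart from the Trim5 and Trim30 genes on chromosome 7 (102207128 to 102214693). Trim21 had 53.8, 48.6 and 49.8 CPM with AAV-iIL12, against 12.3, 8.99, 4.88 and 5.05 CPM with AAV-iLuc (log2 fold change 2.69 ± 0.25, adjusted p = 1.95e-05). The groups stood well apart, at 50.7 ± 2.72 CPM with AAV-iIL12 and 7.80 ± 3.53 CPM with AAV-iLuc.

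The 4 antiviral members outside chromosome 7 that rose did so by less than the 7 on it. Trim25, the ligase known for its work with the RNA sensor RIG-I and with the zinc finger antiviral protein, had 183, 178 and 181 CPM with AAV-iIL12, against 82.2, 77.4, 54.3 and 52.0 CPM with AAV-iLuc. The AAV-iIL12 libraries were almost level, and the log2 fold change was 1.44 ± 0.15 (chromosome 11, 88890202 to 88911119, adjusted p = 3.67e-05). Trim56, which promotes signalling from cytosolic nucleic acid sensors, rose by 1.07 ± 0.08 on the log2 scale (158 ± 8.30 CPM with AAV-iIL12, 75.2 ± 7.57 CPM with AAV-iLuc, adjusted p = 5.51e-06). Trim26, a gene of the MHC region of chromosome 17, rose by 1.03 ± 0.07 (99.7 ± 4.37 CPM with AAV-iIL12, 48.7 ± 4.38 CPM with AAV-iLuc, adjusted p = 4.17e-06). Trim14, which lacks the RING finger and in human cells acts as an adaptor of antiviral signalling, was scarce and rose by 0.86 ± 0.21 (3.56 ± 0.38 CPM with AAV-iIL12, 1.96 ± 0.45 CPM with AAV-iLuc, adjusted p = 0.00760). The exception was Trim65, a ligase of the RNA sensor MDA5, at 7.59 ± 1.19 CPM with AAV-iIL12 and 8.38 ± 1.11 CPM with AAV-iLuc (log2 fold change -0.14 ± 0.15, adjusted p = 0.479). Trim6, Trim31 and Trim38 completed this group among the members with too few counts to test.

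**Figure D2:**
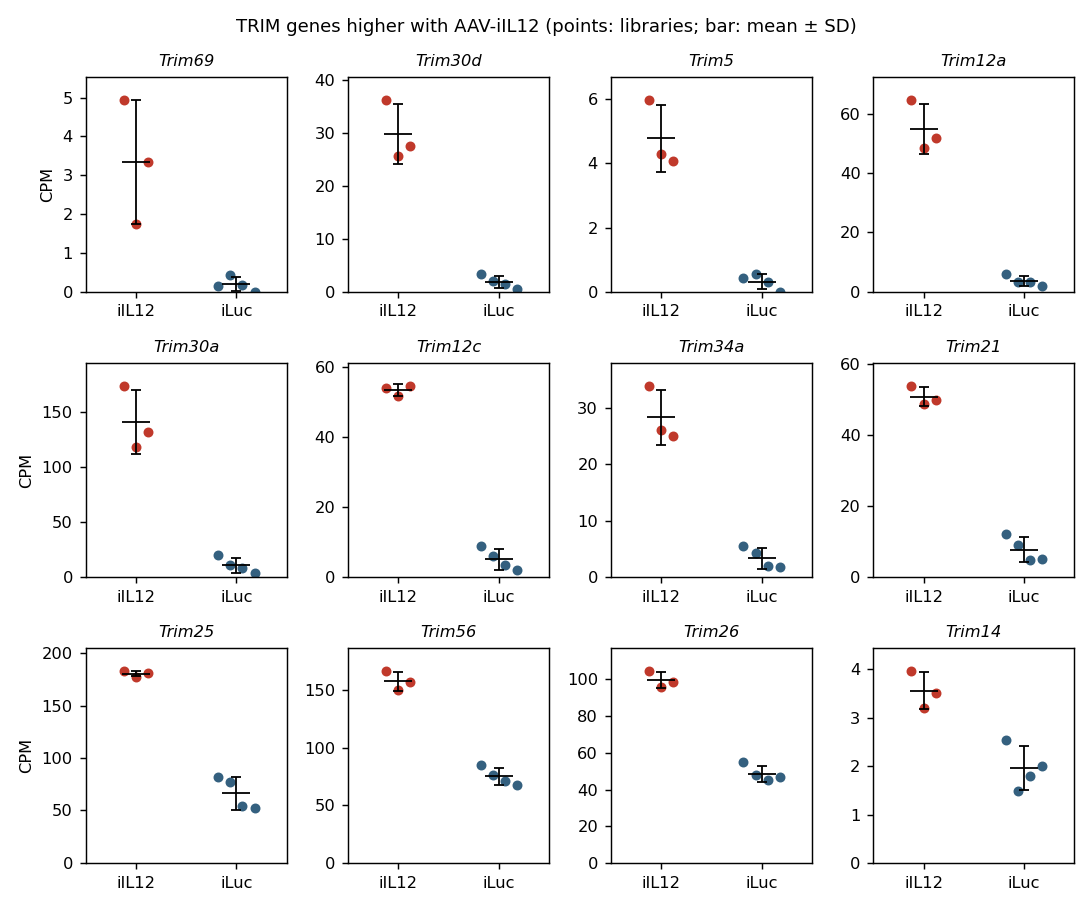
CPM (y axis, from 0) of the 8 largest rises and of Trim25, Trim56, Trim26 and Trim14 in the 3 AAV-iIL12 and 4 AAV-iLuc libraries, with points for libraries and bars for mean ± SD. In each panel every AAV-iIL12 library lies above every AAV-iLuc library.

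Within the AAV-iLuc group the antiviral members did not sit at a common level. AAV-iLuc replicate 1 was the highest of its group for 10 of the 11 antiviral members that rose, and AAV-iLuc replicate 4 was the lowest for 8 of them. Irf1, an interferon gamma target, had 890, 920 and 892 CPM with AAV-iIL12 and 121, 24.0, 24.5 and 16.8 CPM with AAV-iLuc. Replicate 1 was also the highest AAV-iLuc library for 81.4% of all genes that rose at least 4-fold. Leukocyte markers were likewise highest in that library, at 31.5 CPM in sum, and their part in these TRIM levels was not tested. With AAV-iLuc replicate 1 left out, the log2 fold change of Trim30a, Trim30d, Trim12a, Trim12c, Trim34a and Trim21 was 4.18, 4.42, 4.23, 3.77, 3.41 and 3.01, in that order.

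The promoters of these genes were compared because the members rose together. RefSeq windows of 300 bases on GRCm38.p6, from 250 bases before to 50 bases after the annotated start, were found for 53 of the 68 members. Each was searched on both strands for GAAA, then any 2 bases, then GAAA, which is the core of the interferon-stimulated response element (ISRE), a site of interferon-regulated promoters that IRF factors bind. A second search used TTCNNNGAA, the interferon gamma-activated site (GAS). The ISRE core was present in 8 of the 15 risen members that have a window, in 1 of the 8 members that fell, in none of the 12 that did not pass and in none of the 18 not tested. Counted by window, it was in 9 of the 19 windows of risen members and in 1 of the 12 of those that fell. Over all 32817 windows 3.43% hold it. All 8 risen members with the core are antiviral ones, and they include the 7 antiviral ones of chromosome 7. The GAS letters were in none of the windows of members that rose or fell. They were in 2 members that did not pass (2 of 17 windows) and in 4 not tested (5 of 19 windows), beside 8.29% of all windows. No match to either motif overlapped a match to the other.

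The stretches around these matches are shown for the risen members that hold the core, which include 7 of the 8 rises of at least 4-fold. Trim69, the largest rise, has no match in its windows. Each is 30 bases, 5′ to 3′ on the gene's strand, with the ISRE core in capitals, which in all but Trim21 lies on the opposite strand and reads as its reverse complement. In Trim21 and Trim26 the capitals hold 2 overlapping matches.
Trim30a, chr7:104465210-104465239: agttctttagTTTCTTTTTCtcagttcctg
Trim30a, second start, chr7:104446104-104446133: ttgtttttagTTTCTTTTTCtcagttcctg
Trim30d, chr7:104507871-104507900: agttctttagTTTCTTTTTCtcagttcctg
Trim5, chr7:104288136-104288165: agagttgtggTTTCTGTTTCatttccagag
Trim12a, chr7:104315466-104315495: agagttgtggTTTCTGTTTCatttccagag
Trim12c, chr7:104353359-104353388: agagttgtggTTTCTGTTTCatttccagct
Trim34a, chr7:104244457-104244486: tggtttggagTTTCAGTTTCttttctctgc
Trim21, chr7:102565447-102565476: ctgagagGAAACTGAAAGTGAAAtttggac
Trim26, chr17:36836979-36837008: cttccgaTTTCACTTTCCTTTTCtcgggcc
Trim30a and Trim30d carry the same 30 bases, as do Trim5 and Trim12a, so these matches cannot be counted as separate occurrences. Trim25 and Trim56 rose with no match in their windows, and a window without these letters says nothing of elements elsewhere.

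The 250 bases before the annotated start are given for Trim30a, for Trim12c of the Trim5 relatives, and for Trim26. The match of Trim26 lies farther from the start. Trim34a and Trim21 hold other stretches, as shown above.
Trim30a, minus strand, chr7:104465194-104465443: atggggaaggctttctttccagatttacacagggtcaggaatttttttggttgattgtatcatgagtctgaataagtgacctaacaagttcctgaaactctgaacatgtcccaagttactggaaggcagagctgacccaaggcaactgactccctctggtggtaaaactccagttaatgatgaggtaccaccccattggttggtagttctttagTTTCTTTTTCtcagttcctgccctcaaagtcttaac
Trim12c, minus strand, chr7:104353350-104353599: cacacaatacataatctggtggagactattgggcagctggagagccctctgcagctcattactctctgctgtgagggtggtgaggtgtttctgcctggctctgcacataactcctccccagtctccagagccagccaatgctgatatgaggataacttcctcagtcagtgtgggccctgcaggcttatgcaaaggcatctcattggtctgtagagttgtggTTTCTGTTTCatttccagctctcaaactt
Trim26, plus strand, chr17:36836896-36837145: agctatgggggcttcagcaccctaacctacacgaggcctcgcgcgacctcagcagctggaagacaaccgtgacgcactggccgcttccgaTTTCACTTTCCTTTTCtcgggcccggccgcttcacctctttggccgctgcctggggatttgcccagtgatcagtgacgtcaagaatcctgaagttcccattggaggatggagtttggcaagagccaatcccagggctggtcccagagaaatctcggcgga

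**Figure D3:**
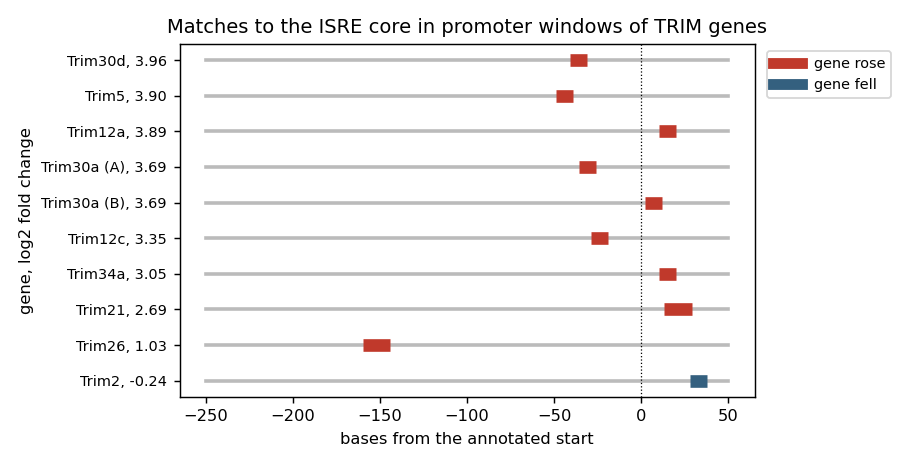
Position of the ISRE core (x axis, bases from the annotated start) in the promoter windows of the TRIM genes that hold it, with the log2 fold change beside each name and grey lines for the windows. In the 7 chromosome 7 genes the matches lie between -49 and 28, in Trim26 they begin at -160, and in Trim2, which fell, the match begins at 28. A and B are the starts of Trim30a, in the order of the sequences above.

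Among the members listed as regulators of NF-kB, JAK-STAT, MAPK or cell death signalling, Trim69 stood out from the rest. Human TRIM69 is an interferon-stimulated gene that restricts vesicular stomatitis virus. Trim69 (chromosome 2, 121991181 to 122009508) had 4.94, 1.74 and 3.35 CPM with AAV-iIL12, against 0.156, 0.439, 0.179 and 0 CPM with AAV-iLuc. Its log2 fold change of 4.08 ± 0.58 (adjusted p = 3.12e-04) rests on 174 counts in AAV-iIL12 and 14 in AAV-iLuc. With each library left out in turn, the value lay between 3.65 (without AAV-iLuc replicate 4) and 4.85 (without AAV-iLuc replicate 2).

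The other signalling members differed by less than 2-fold. Trim23, which carries an ARF GTPase domain, rose by 0.25 ± 0.06 (30.5 ± 1.21 CPM with AAV-iIL12, 25.6 ± 0.85 CPM with AAV-iLuc, adjusted p = 0.00943). Trim8, a partner of SOCS1, rose by 0.19 ± 0.05 (71.3 ± 2.62 CPM with AAV-iIL12, 62.5 ± 2.02 CPM with AAV-iLuc, adjusted p = 0.0114). Scaling decided these small rises: by library size alone the adjusted p was 0.0675 for Trim23 and 0.15 for Trim8, and by the upper quartile it was 0.0772 for Trim8. Trim59, a member with a transmembrane segment, fell, with 24.3, 27.4 and 24.4 CPM with AAV-iIL12 against 44.0, 35.4, 42.9 and 51.6 CPM with AAV-iLuc (log2 fold change -0.78 ± 0.12, adjusted p = 4.09e-04). Trim62 also fell, with 17.1, 16.6 and 15.9 CPM with AAV-iIL12 against 22.0, 20.9, 21.4 and 22.4 CPM with AAV-iLuc (log2 fold change -0.39 ± 0.07, adjusted p = 0.00125). In both genes no AAV-iIL12 library reached the AAV-iLuc range, and the AAV-iLuc libraries of Trim59 were spread more widely than those of Trim62. Trim35, among the most abundant members, had 135, 136 and 137 CPM with AAV-iIL12 and 137, 135, 130 and 140 CPM with AAV-iLuc, a log2 fold change of 0.01 ± 0.05 (adjusted p = 0.927). Trim11, Trim13, Trim27, Trim39, Trim45 and Trim68 did not pass either, with log2 fold changes between -0.21 (Trim27) and 0.28 (Trim45).

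The chromatin members Trim24, Trim28, Trim33 and Trim66 are nuclear cofactors with a PHD finger and a bromodomain. Trim28, also called KAP1, is the corepressor that KRAB zinc finger proteins use to silence endogenous retroviruses, and it was the most abundant TRIM transcript per length in both groups. Trim28 (chromosome 7, 12733041 to 12764962) had 229, 238 and 243 CPM with AAV-iIL12, against 269, 290, 324 and 303 CPM with AAV-iLuc. All AAV-iIL12 libraries lay below all AAV-iLuc libraries, by a small margin (log2 fold change -0.33 ± 0.07, adjusted p = 0.00327). Trim33, a regulator of SMAD4, had 83.1, 87.2 and 84.4 CPM with AAV-iIL12 and 76.3, 81.4, 78.7 and 74.0 CPM with AAV-iLuc, without overlap, and did not pass (log2 fold change 0.13 ± 0.05, adjusted p = 0.0529). Trim24, a cofactor of nuclear receptors, rose by 0.21 ± 0.07 with overlapping groups (72.3 ± 6.87 CPM with AAV-iIL12, 62.2 ± 3.34 CPM with AAV-iLuc, adjusted p = 0.0320). That call ended in 4 of the 7 fits that left out a library, with adjusted p between 0.0565 and 0.112, namely when AAV-iIL12 replicates 1 or 3, or replicates 1 or 3 of AAV-iLuc, were dropped. It also ended with library size only (0.179), upper quartile scaling (0.130) and the replicate number as a block (0.0667). Trim66 was near the floor of detection, with 0.853, 1.25 and 0.659 CPM with AAV-iIL12 and 0.312, 0.164, 0.357 and 0.206 CPM with AAV-iLuc (log2 fold change 1.81 ± 0.39, adjusted p = 0.00335, 49 counts against 19).

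Genes that work with TRIM28 moved in the same direction in part. Of 9 partners 5 fell, 1 rose and 3 did not pass, where 23.7% of all tested genes fell, and their median log2 fold change was -0.25. Hdac2, a histone deacetylase, stood at 70.1 ± 2.07 CPM with AAV-iIL12 and 103 ± 4.14 CPM with AAV-iLuc (log2 fold change -0.55 ± 0.05, adjusted p = 1.95e-05). The heterochromatin protein genes Cbx1 and Cbx3 fell by 0.39 and 0.54 on the log2 scale (adjusted p = 1.65e-04 and 5.36e-04). Cbx5 and Hdac1 fell by 0.35 and 0.25, while Atf7ip, a cofactor of the histone methyltransferase SETDB1, rose by 0.41. Setdb1 itself, Chd4 and Chd3 did not pass, at -0.14, -0.05 and 0.17 on the log2 scale. The list as a whole was not tested.

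In the cytoskeletal group 2 of the 5 tested members fell and none rose, where 23.7% of all tested genes fell and 23.5% rose, and 5 genes are too few to set apart from these shares. These proteins carry a COS box, which binds microtubules. Trim9, a neuronal ligase of axon branching, had 1.40, 2.72 and 2.09 CPM with AAV-iIL12, against 5.46, 4.66, 3.93 and 3.97 CPM with AAV-iLuc (log2 fold change -1.11 ± 0.23, adjusted p = 0.00298). Its close relative Trim67 was scarcer, with 0.305, 0.597 and 0.879 CPM with AAV-iIL12 and 1.51, 1.26, 1.31 and 1.13 CPM with AAV-iLuc (log2 fold change -1.11 ± 0.34, adjusted p = 0.0209). Trim9 and Trim67 were the only tested members that fell at least 2-fold, where 4.67% of all tested genes did so, and Trim67 passed the low-count filter only through AAV-iLuc, where it is higher. The Trim67 call ended without AAV-iIL12 replicate 1 or 2 (adjusted p = 0.0738 and 0.0641). Trim63 encodes MuRF1, the ligase of muscle atrophy, and was abundant in these sorted cells. Trim63 had 35.8, 50.8 and 47.5 CPM with AAV-iIL12 and 48.4, 62.6, 55.9 and 49.9 CPM with AAV-iLuc, with overlap (log2 fold change -0.28 ± 0.12, adjusted p = 0.0951). It passed as a fall with library size only (adjusted p = 0.0305), upper quartile scaling (0.0423), no low-count filter (0.0264) and the replicate block (0.0105). Trim36 and Trim46 did not pass, at log2 fold changes of 0.67 and 0.33, and Trim42, Trim54 and Trim55 had no count in any library.

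The members with NHL repeats, a propeller that binds RNA or protein, held 2 falls and no rise among 4, again too few to set apart from the 23.7% of all tested genes that fell, and both calls ended in some alternative fits. Trim2, a ligase of neurofilament light chain, had 40.2, 40.4 and 45.2 CPM with AAV-iIL12, against 52.8, 48.5, 48.4 and 47.9 CPM with AAV-iLuc (log2 fold change -0.24 ± 0.07, adjusted p = 0.0136). The groups did not overlap, but the call ended without AAV-iIL12 replicate 2 (adjusted p = 0.0577). Trim71, the stem cell RNA regulator first known as lin-41 in worms, stood at 4.20 ± 1.29 CPM with AAV-iIL12 and 7.44 ± 1.94 CPM with AAV-iLuc, with overlap (log2 fold change -0.82 ± 0.26, adjusted p = 0.0241). Its call ended on dropping replicate 1 or 2 of AAV-iIL12, or replicate 1, 3 or 4 of AAV-iLuc (adjusted p between 0.0517 and 0.0821) and with the replicate block (0.0687). Trim3 and Trim32 did not pass, at 0.04 and -0.19 on the log2 scale.

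**Figure D4:**
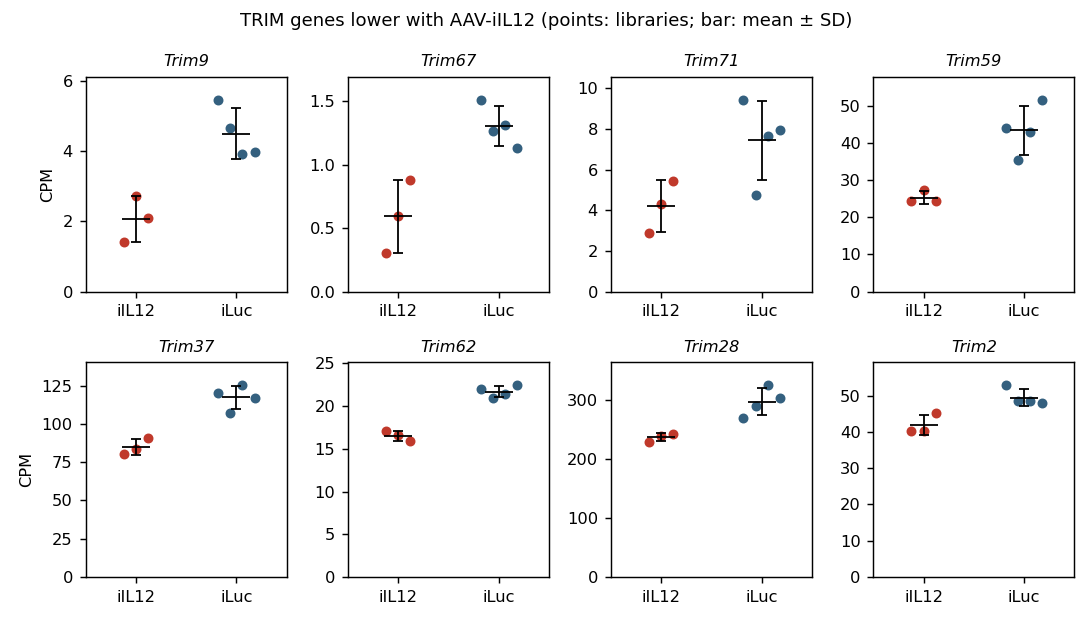
CPM (y axis, from 0) of the 8 TRIM genes that fell, in the 3 AAV-iIL12 and 4 AAV-iLuc libraries, with points for libraries and bars for mean ± SD. Trim71 is the only panel in which the groups overlap, and Trim9 and Trim67 are the only genes lower by at least 2-fold.

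Of the 20 remaining members 7 were tested, and 2 rose and 1 fell, where 23.5% of all tested genes rose and 23.7% fell. Again, 7 genes are too few to set apart from these shares, and Trim17 passed the low-count filter through AAV-iIL12 alone. Trim37, which holds centriole number in check, had 80.1, 83.8 and 90.8 CPM with AAV-iIL12, against 120, 107, 125 and 117 CPM with AAV-iLuc (log2 fold change -0.47 ± 0.07, adjusted p = 3.02e-04). Its groups were well separated, and the fall passed in every alternative fit. Trim17 rose by 1.97 ± 0.40 at a low level (1.46 ± 0.77 CPM with AAV-iIL12, 0.366 ± 0.035 CPM with AAV-iLuc, adjusted p = 0.00253), and 708 of its 3736 exonic bases lie in exons of the histone gene Hist3h2a on the same strand. Trim7, a partner of glycogenin, rose by 0.49 ± 0.12 (13.6 ± 1.90 CPM with AAV-iIL12, 9.67 ± 0.80 CPM with AAV-iLuc, adjusted p = 0.00659). Trim44, which has a ubiquitin-binding zinc finger in place of the RING, had 202, 200 and 216 CPM with AAV-iIL12 and 202, 197, 180 and 198 CPM with AAV-iLuc (log2 fold change 0.09 ± 0.06, adjusted p = 0.259). Trim41 had 68.3, 73.3 and 66.4 CPM with AAV-iIL12 and 61.9, 58.7, 60.9 and 67.0 CPM with AAV-iLuc, just outside the threshold (log2 fold change 0.16 ± 0.06, adjusted p = 0.0548). Trim10 and Trim47 did not pass, at -0.05 and -0.57 on the log2 scale.

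Levels were set between genes only per length of exon, as FPKM, the CPM above divided by the exonic length in kilobases. Trim28 led in both groups, at 56.9 ± 1.69 FPKM in AAV-iIL12 and 71.4 ± 5.54 FPKM in AAV-iLuc. In AAV-iIL12 Trim44, Trim30a and Trim25 followed at 36.5 ± 1.56, 34.4 ± 7.05 and 31.3 ± 0.45 FPKM, and the ranges of neighbours in that order overlapped. In AAV-iLuc Trim44 and Trim35 followed at 34.4 ± 1.75 and 29.3 ± 0.91 FPKM without overlap, and Trim30a stood only at rank 22 of 68, at 2.65 ± 1.64 FPKM. Trim30a thus held rank 3 in AAV-iIL12 and rank 22 in AAV-iLuc, and Trim25 rank 4 in AAV-iIL12 and rank 9 in AAV-iLuc.

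Summed over all 68 members, TRIM transcripts came to 432 ± 13.0 FPKM in AAV-iIL12 and 330 ± 3.46 FPKM in AAV-iLuc. The antiviral members supplied 157 ± 14.9 FPKM of this in AAV-iIL12 and 37.4 ± 8.57 FPKM in AAV-iLuc. Their share of the TRIM sum was 36.3 ± 2.34% in AAV-iIL12 and 11.3 ± 2.57% in AAV-iLuc. The chromatin members made up 17.2 ± 0.72% of the sum in AAV-iIL12 and 26.3 ± 1.77% in AAV-iLuc. The signalling members supplied 93.0 ± 1.80 FPKM in AAV-iIL12 and 93.9 ± 4.91 FPKM in AAV-iLuc, so the sum differed mostly through the antiviral group. The spread of the members between libraries was close to that of other genes in AAV-iIL12, with a median coefficient of variation of 9.22% beside 8.03% over all tested genes, and larger in AAV-iLuc, at 12.5% beside 8.57%.

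**Figure D5:**
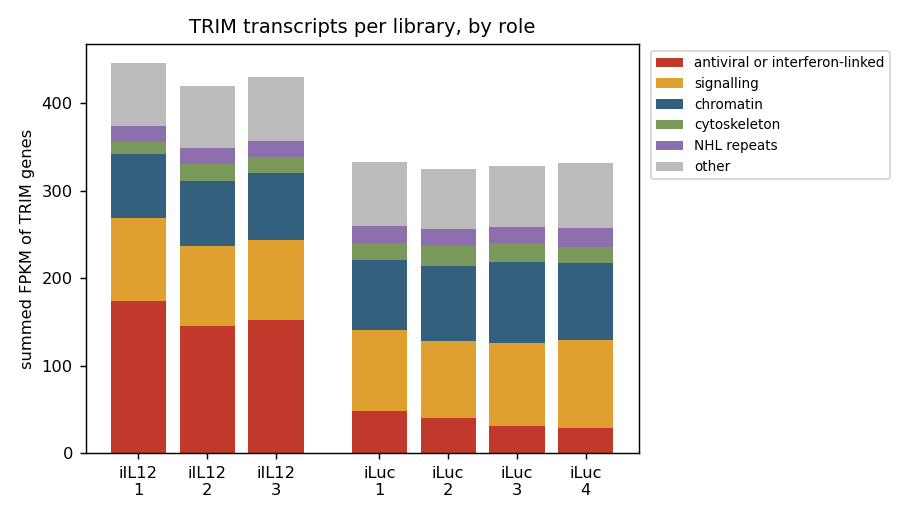
Summed FPKM of the TRIM genes (y axis, from 0) in each of the 3 AAV-iIL12 and 4 AAV-iLuc libraries, stacked by role. The antiviral part reaches between 145 and 174 FPKM in AAV-iIL12 and between 29.3 and 48.0 FPKM in AAV-iLuc, and the chromatin part between 72.8 and 75.6 FPKM with AAV-iIL12 and between 79.9 and 92.9 FPKM with AAV-iLuc.

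Genes that TRIM ligases work with were examined from fixed lists. Of 13 genes in the list of ubiquitin-conjugating enzymes and their relatives, 2 rose, 3 fell and 8 did not pass, with a median log2 fold change of -0.07. Neither count stands above the 23.5% of all tested genes that rose and the 23.7% that fell. By far the larger rise was that of Ube2l6, the conjugating enzyme of ISG15 that works with TRIM25, at 233 ± 7.05 CPM with AAV-iIL12 and 18.7 ± 9.86 CPM with AAV-iLuc (log2 fold change 3.64 ± 0.30, adjusted p = 1.06e-05). Ube2d3 rose by 0.21, while Ube2k, Ube2l3 and Ube2n, the source of lysine 63 chains, fell by 0.29, 0.18 and 0.21 on the log2 scale.

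Of 18 RNA sensing and signalling partners 11 rose, 4 fell and 3 did not pass, with a median of 0.26, where 23.5% of all tested genes rose and 23.7% fell, so the falls were near the background. Dhx58 and Irf7 rose by 4.05 and 4.02 (adjusted p = 5.35e-06 and 7.30e-06), and Tmem173, which encodes STING, by 0.96 (6.90e-06). Ddx58, the RIG-I gene that TRIM25 acts with, stood at 102 ± 9.82 CPM with AAV-iIL12 and 29.5 ± 10.3 CPM with AAV-iLuc (log2 fold change 1.79 ± 0.22, adjusted p = 1.06e-04). Ifih1, the MDA5 gene, rose by 2.66 and Zc3hav1, the zinc finger antiviral protein gene, by 1.10. The partners that fell were Mavs, Vcp, Traf3 and Map3k7, each by between 0.20 and 0.24.

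In the interferon signalling list 9 of 12 rose, 1 fell and 2 did not pass, with a median of 1.18, beside the 23.5% of all tested genes that rose and 23.7% that fell. Jak2, Socs1 and Ifnar2 had the smallest p, with rises of 1.28, 4.03 and 1.09 on the log2 scale (adjusted p = 1.19e-06, 2.50e-06 and 9.13e-06). Among 8 TRIM family genes with other names, Pml, the scaffold of nuclear bodies, rose by 1.71 ± 0.08 (186 ± 11.1 CPM with AAV-iIL12, 56.9 ± 5.99 CPM with AAV-iLuc, adjusted p = 1.04e-06). Mid1 and Cmya5 did not pass, at 0.996 ± 0.410 and 0.65 ± 0.55, nor did Mid2, and the other 4 had too few counts to test.

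The 24 members that were not tested had at most 57 counts over the 7 libraries together. No count was seen for 11 of them, which include Trim31, Trim40, Trim42, Trim52, Trim58, Trim61 and Trim75. Another 7 had between 1 and 10 counts in all, and 6 had more: Trim6, Trim16, Trim38, Trim50, Trim72 and Trim80.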

How the data were processed

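Poly(A) RNA of sorted tumour cells was measured in 7 libraries. The authors deposited raw counts of fragments, made with featureCounts 1.6.0 on the exons of GENCODE vM32 with reverse-stranded, paired-end settings, per the file headers, which set no option to count multi-mapping reads. The submitters' processing notes also name STAR 2.7.9a, FastQC 0.11.8, GRCm39, edgeR and limma. Symbols came from GENCODE vM21 by identifier and matched 52029 of 56953 genes, with 99.4% of counts; gene coordinates are those of the files. Promoter sequences are RefSeq's, on GRCm38.p6.

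The test was that of edgeR 4.0.16, run in R 4.3.3 (quasi-likelihood F test, TMM, filterByExpr, Benjamini-Hochberg at 0.05 over all tested genes). The SE comes from the F statistic. The filter asks for about 10 counts in at least 3 libraries. FPKM used the exonic length in the files. It was checked on simulated data. Members and lists were chosen with earlier results of these data known. Named genes were the 8 largest rises and 8 largest falls without overlap (7 falls met this), the 5 highest in FPKM, the 5 most abundant that did not pass, and Trim21, Trim25, Trim28 and Trim30a; further members were named to account for the family. Alternatives were 3 scalings, 2 filters, DESeq2 1.42.0, limma-voom (limma 3.58.1), a replicate block, a threshold of 0.01 and each library left out. The labels give no sequencing batch. The series' design text counts libraries as mice. No pair of libraries agreed within sampling noise.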

Additional observations from a re-analysis of the deposited data

Results flagged for a closer look

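Of the 21 named genes, Trim2 had an AAV-iLuc library far from the others of its group. AAV-iLuc replicate 1 stood at 52.8 CPM, with the next library at 48.5 CPM and a gap of 0.880 of the group's whole range, above Dixon's critical value of 0.829 for 4 samples. By chance about 1 in 20 groups would be marked in this way. The cause was not tested.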

How the results depend on the processing

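Of the 26 called members, 20 passed in the same direction in each of the 16 alternative fits in which they were tested: 15 of the 18 rises and 5 of the 8 falls. The 6 that lost a call in some fit were Trim8, Trim23, Trim24, Trim2, Trim67 and Trim71, and no called member changed sign. Trim27, Trim33, Trim39, Trim41 and Trim63, which did not pass, passed in some fits. DESeq2 and limma-voom gave 18 rises and 8 falls each. The number of falls was 5 at a threshold of 0.01, and between 5 and 9 when libraries were left out in turn, with 5 without AAV-iIL12 replicate 2, where fewer samples entered. The rises then numbered between 17 and 19. The median of the tested members was 0.11 with library size only and 0.12 with upper quartile scaling, where the median of all genes was -0.10 and -0.08. Leaving out libraries gave medians between 0.15 and 0.21. With the replicate number as a block 17 members rose and 8 fell; AAV-iLuc replicate 4 then has no partner. Same-numbered libraries did not deviate together (correlations of 0.09, 0.03 and -0.05). The labels do not say that the numbers pair animals, and so few correlations cannot settle it. Without the low-count filter 20 rose and 9 fell. Depth limits the 24 untested members and those under about 1 CPM, such as Trim66 and Trim67.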

Other observations

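Some members too scarce to test are described by their counts. Trim72, which encodes the membrane repair protein MG53 of muscle, had 46 counts over the 3 AAV-iIL12 libraries and 11 over the 4 AAV-iLuc libraries. By library these were 30, 8 and 8 with AAV-iIL12, mostly from replicate 1, and 1, 5, 3 and 2 with AAV-iLuc. Trim38, a brake on innate signalling, had 13 in AAV-iIL12 and 2 in AAV-iLuc. Without the low-count filter both were called higher (edgeR adjusted p = 0.00102 for Trim72 and 0.0376 for Trim38). Trim29 had 9 counts in AAV-iIL12 and 1 in AAV-iLuc, and did not pass in that fit (adjusted p = 0.0640).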
